A study of Mus musculus with 4 samples.

Results

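The miR-106b-25 cluster consists of the miRNA hairpins Mir106b, Mir93 and Mir25, which lie inside the gene Mcm7. These 4 genes were taken as members wherever a feature of the deposited small RNA table was named for one of them in GENCODE M21. The rule found 13 features, namely the 3 hairpins and 10 Mcm7 transcripts, among 141239 features in all. The rule used no measured value. The table holds estimated counts per transcript for 4 libraries of RAW264.7 cells, a mouse line labelled as macrophage, and of the extracellular vesicles that these cells released. The cells carried either shNS, a non-silencing short hairpin RNA, or shDis3l2, a hairpin against Dis3l2, which encodes a cytoplasmic exonuclease for uridine-tailed RNAs. All 4 groups received doxycycline at 1 µg per mL, for 3 days before the medium was exchanged for one with vesicle-depleted serum and during the following 24 h of vesicle collection. Each group is 1 library, so no difference below has a replicate check and no p-value is given. Values for all 4 libraries follow the order cells, then vesicles, each with the label shNS first and shDis3l2 second.

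A miRNA hairpin is cut from a longer transcript by Drosha and Dgcr8 in the nucleus and by Dicer1 in the cytoplasm, which leaves a short mature miRNA that pairs with mRNAs mainly through its seed. The miR-106b-25 cluster is a paralogue of the miR-17-92 cluster and is transcribed with its host gene. Mcm7 encodes a subunit of the MCM helicase, which is loaded on replication origins and unwinds DNA in S phase, and both the gene and its miRNAs are targets of E2F transcription factors. In proliferating cells the cluster is known for restraining Cdkn1a, Bcl2l11 and other brakes on the cell cycle and survival.

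The guide strands of the cluster fall into 2 seed groups, and they are shown with those of the paralogous miR-17-92 cluster because a read is assigned by its sequence alone. Capitals mark the seed, bases 2 to 8, and the sequences are those of RefSeq for GRCm38.p6, written 5′ to 3′.
miR-106b-5p: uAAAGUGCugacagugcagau
miR-93-5p: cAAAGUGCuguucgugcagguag
miR-17-5p: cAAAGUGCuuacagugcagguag
miR-20a-5p: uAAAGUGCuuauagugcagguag
miR-25-3p: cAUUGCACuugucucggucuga
miR-92a-3p: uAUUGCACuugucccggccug
Aligned from the first base without gaps, miR-93-5p matched miR-17-5p at 19 of 23 bases and miR-106b-5p at 16 of 21, and its longest run shared with them was 10 and 9 bases. miR-25-3p matched miR-92a-3p at 18 of 21 bases, with a shared run of 12. None of these guide strands of the cluster was the same as a paralogue, and the table gives 1 value per hairpin with both arms in it.

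The 3 hairpins lie on the minus strand of chromosome 5 in intron 13 of the protein-coding transcript Mcm7-201, which has 15 exons. Mir106b comes first in the direction of transcription, at chr5:138165737-138165818 (GRCm38), followed after 126 nt by Mir93 at chr5:138165523-138165610 and after another 118 nt by Mir25 at chr5:138165321-138165404. A second transcript, Mcm7-202, is annotated as a retained intron from 138164600 to 138165716 and starts inside this intron, 20 nt downstream of Mir106b. Its first exon therefore holds Mir93 and Mir25 whole and leaves Mir106b out. Of its 986 nt, 555 are retained intron, of which 172 are hairpin, and 431 are shared with exons of Mcm7-201. The other 9 Mcm7 transcripts hold no hairpin in an exon.

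**Figure D1:**
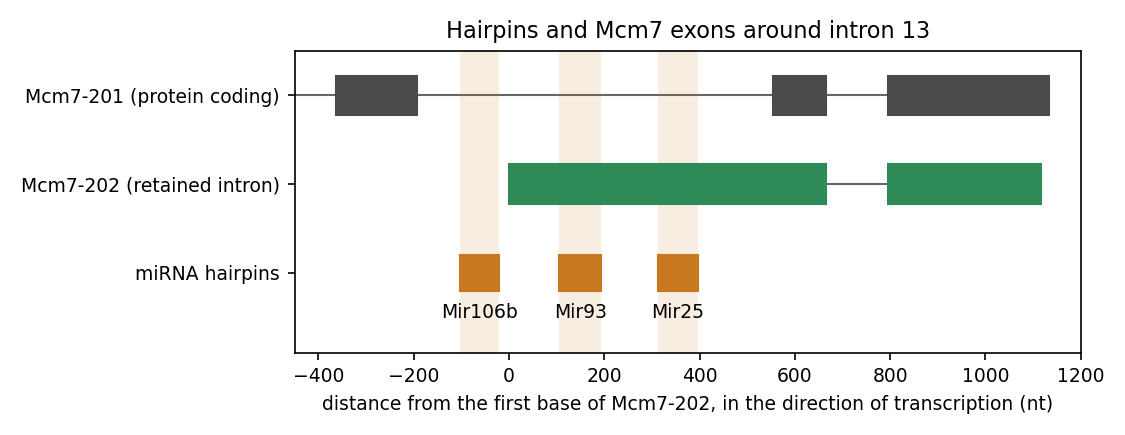
Map of the 3 hairpins and of the exons of Mcm7-201 and Mcm7-202, drawn to scale along the direction of transcription. The horizontal axis is the distance in nt from the first base of Mcm7-202, boxes are exons or hairpins, and exons of Mcm7-201 beyond the window are not drawn; Mir93 and Mir25 lie inside the first exon of Mcm7-202, and Mir106b ends 20 nt before it.

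The stretch of Mcm7-202 from base 107 to base 396 (chr5:138165321-138165610, minus strand) shows why reads of miR-93 and miR-25 match more than 1 feature, and the Mir106b hairpin is shown beside it. Capitals mark the mature arms.
Mcm7-202: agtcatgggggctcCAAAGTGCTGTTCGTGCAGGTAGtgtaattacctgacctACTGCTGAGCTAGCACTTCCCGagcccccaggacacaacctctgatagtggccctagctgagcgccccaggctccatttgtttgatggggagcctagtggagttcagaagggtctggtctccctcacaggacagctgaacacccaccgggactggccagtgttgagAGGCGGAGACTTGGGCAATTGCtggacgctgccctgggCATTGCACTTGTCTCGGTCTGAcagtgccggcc
Mir106b: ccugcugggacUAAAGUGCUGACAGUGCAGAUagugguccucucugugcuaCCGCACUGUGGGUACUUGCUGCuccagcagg
Both arms of miR-93 and both arms of miR-25 occurred exactly in 2 features of the table, the hairpin and Mcm7-202. Both arms of miR-106b occurred in 1 feature, the hairpin Mir106b. A count on Mcm7-202 can thus come from miR-93, from miR-25 or from other parts of the transcript, and the table does not say which.

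Library depth ranged from 17612856 to 19741041 counts, of which miRNA hairpins took 13480443, 11273350, 3477466 and 1854287. Counts on the targeted gene went against the label, at 41.1, 13232, 1713 and 1894, and every library is named by its label. Cells labelled shDis3l2 thus had far more of these counts than cells labelled shNS. Whether they came from Dis3l2 mRNA or from the short hairpin RNA was not tested. The counts are therefore not read as the level of the gene. Of 11 macrophage markers, 9 to 10 had a count in each library, with sums of 64419, 44367, 15932 and 7782 in counts per 1000000 (CPM) of all counts. Most of each sum lay on Mir142, with 1118140, 788076, 265022 and 121711 counts. The mRNA markers, such as Lyz2 with 223, 122, 2161 and 1364 counts, had more counts in vesicles than in cells. The exception was Adgre1 with the label shDis3l2, with 7.16 counts in cells and 6.93 in vesicles. The hairpin Mir223 was at 0 in all 4 libraries, where its host F630028O10Rik held the counts, and Itgam was at 0 in the cell library labelled shNS. The 4 erythroid and serum markers summed to 7.12 and 8.19 CPM of all counts in cells and 53.9 and 33.3 in vesicles, labelled shNS and shDis3l2, with Mir486 at 0 in 3 libraries and Mir144 in 1. The 5 epithelial markers summed to 13.4 to 39.3 CPM, with Mir429 at 0 throughout, and the 6 muscle markers to between 2.60 and 7.20 CPM, with Mir1a-1, Mir133a-1, Mir133a-2 and Mir206 at 0. The 5 neuronal markers were at 0 except Mir124a-1 in the vesicle library labelled shDis3l2. The part of serum RNA in the vesicle values below was not tested. Vesicle amount and RNA per vesicle, or cell number and RNA per cell, cannot be told apart in such libraries.

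Nearly all counts of the cluster lay on Mir93 and on Mcm7-202, in every library. Mir93 had 345063, 393315, 103051 and 56675 counts. Mcm7-202 had 192325, 259450, 61274 and 26071 counts. Mir106b was far lower, with 3724, 4250, 2673 and 1340 counts. Mir25 was almost empty, with 46.4, 51.4, 26.8 and 0 counts, although the shared sequence means that reads of miR-25 can be among those of Mcm7-202. The count of 0 allows up to 1.62 CPM of miRNA counts (a floor of 3 counts), so that, with that floor and the other count taken as it stands, among vesicles Mir25 was at least 4.80-fold lower with the label shDis3l2 than with shNS. The exact interval of the same ratio, which also covers the counting error of the 26.8 counts, reached down to 3.64-fold. Against cells of the same label the fold from the floor was 2.80, and the interval reached down to 2.19. Reads of miR-25 also match Mcm7-202, so these folds concern counts assigned to Mir25 and set no limit on miR-25.

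Of the counts on the 3 hairpins and Mcm7-202, here called the cluster sum, Mir93 held 63.8%, 59.9%, 61.7% and 67.4%. The share on Mcm7-202 was 35.5% (exact 95% interval 35.4 to 35.7) and 39.5% (39.4 to 39.6) in cells, and 36.7% (36.5 to 36.9) and 31.0% (30.7 to 31.3) in vesicles. The label shDis3l2 thus went with the highest share in cells and the lowest in vesicles. Mir106b held 0.688% and 0.647% in cells and 1.60% and 1.59% in vesicles. Mir25 held at most 0.0162%. These intervals, like all below, cover counting error only and leave out error in dividing shared reads between Mcm7-202 and the hairpins. The sources used here do not say whether reads were collapsed to molecules.

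The remaining Mcm7 transcripts took a trace of the gene's counts. Mcm7-202 held 99.99% of all Mcm7 counts in each cell library, and 99.5% and 98.8% in the vesicles. The protein-coding Mcm7-201 had 4.92, 24.8, 120 and 117 counts. The retained-intron transcript Mcm7-205, on chromosome 5 from 138168060 to 138170381, had 1.40 and 2.13 counts in cells and 159 and 204 in vesicles. Counts on Mcm7-203, Mcm7-204, Mcm7-206, Mcm7-209 and Mcm7-210 were at most 7.25 in any library, and Mcm7-207 and Mcm7-208 were at 0 in all 4. Per nt of annotated length, cells labelled shNS had 3921 counts of Mir93, while Mcm7-202 had 195, Mir106b 45.4, Mir25 0.552 and Mcm7-201 0.00166. In the vesicle library labelled shDis3l2, these counts per nt were 644, 26.4, 16.3, 0 and 0.0394. The order by length was the same in both libraries except for the last pair, of which Mir25 was at 0 in the vesicles.

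Scaled to the miRNA total, the cluster sum was 40144, 58285, 48030 and 45347 CPM of miRNA counts. The cell library labelled shDis3l2 was the highest and that labelled shNS the lowest, with both vesicle libraries between them. The counting intervals of these 4 sums did not overlap. The miRNA total leaves Mcm7-202 itself out, since it sums features typed as miRNA. By counts, the sum would rank 9 and 6 among hairpins in cells and 7 in both vesicle libraries, while Mir93 alone ranked 13, 11, 12 and 11. Mir106b ranked between 73 and 88.

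Mir93 stood at 25597, 34889, 29634 and 30564 on this scale. Its vesicle libraries lay close to each other, and between those of the cells. Mcm7-202 stood at 14267 and 23014 in cells and at 17620 and 14060 in vesicles. Its lowest library was the vesicle library labelled shDis3l2, which was not the lowest for Mir93. The counting interval there (13891 to 14230) overlapped that of the cell library labelled shNS (14204 to 14330), so these libraries were close for Mcm7-202. Mir106b stood at 276 and 377 in cells and at 769 and 723 in vesicles, so both vesicle libraries were above both cell libraries. Mir25 stood at 3.41, 4.52 and 7.76, with no count in the last vesicle library.

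**Figure D2:**
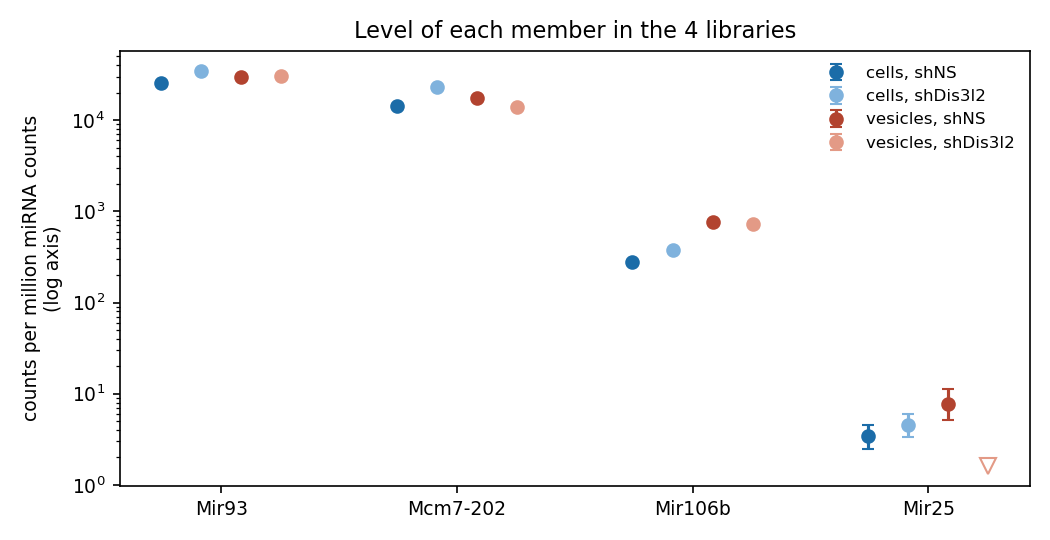
Level of Mir93, Mcm7-202, Mir106b and Mir25 in CPM of miRNA counts (log axis) in the 4 libraries, 1 point per library with its exact 95% counting interval; the open triangle is the floor of 3 counts, 1.62, where Mir25 had 0 counts. Mir106b is at 276 and 377 in cells and at 769 and 723 in vesicles, whereas Mir93 stays between 25597 and 34889.

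The first comparison asked how the cluster differed in cells between the labels shDis3l2 and shNS. Mir106b and Mir93, which lie 126 nt apart, had nearly the same log2 ratio, 0.45 for both, with intervals of 0.38 to 0.51 and 0.44 to 0.45. Mcm7-202 had a ratio of 0.69 (0.68 to 0.70), and the cluster sum 0.54 (0.53 to 0.54), or 1.45-fold higher in the library labelled shDis3l2. The median of 206 hairpins with at least 100 counts over both libraries was 0.03, and the sum would rank 32 of 205 when set among the other hairpins. Mir25 had too few counts for this set, with a ratio of 0.41 (-0.20 to 1.01). None of Mir106b, Mir93 and Mcm7-202 reached 2-fold, the size at which 7.28% of hairpins were higher and 9.22% lower. The sum was higher under each scale tried, from 0.38 with all counts as the scale to 0.61 with TMM factors.

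In vesicles, the same comparison gave smaller ratios with mixed signs. Mir93 was at 0.04 (0.03 to 0.06), Mir106b at -0.09 (-0.18 to 0.01) and Mcm7-202 at -0.33 (-0.35 to -0.30), all within 2-fold, the size at which 17.4% of 195 hairpins were higher and 6.15% lower. The cluster sum was at -0.08 (-0.09 to -0.07), or 1.06-fold lower in the library labelled shDis3l2, and the hairpins without Mcm7-202 were at 0.04. The sign of the sum in vesicles thus depended on whether the transcript was counted with it. Against the median of the hairpins, 0.22, Mir93, Mir106b, Mcm7-202 and the sum all lay lower, and the sum would rank 133 of 194. A change of scale moved all ratios of this comparison alike, by -0.35 for TMM, -0.34 for DESeq2 and -0.86 when all counts were the scale, and left these ranks as they were.

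The label ratio of the cluster sum in vesicles minus that in cells was -0.62 (-0.63 to -0.61). The difference was -0.40 for Mir93, -0.54 for Mir106b and -1.02 for Mcm7-202. Its sign was negative for each of them, and for the sum also under each scale tried. With 1 library per group these differences have no replicate check.

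**Figure D3:**
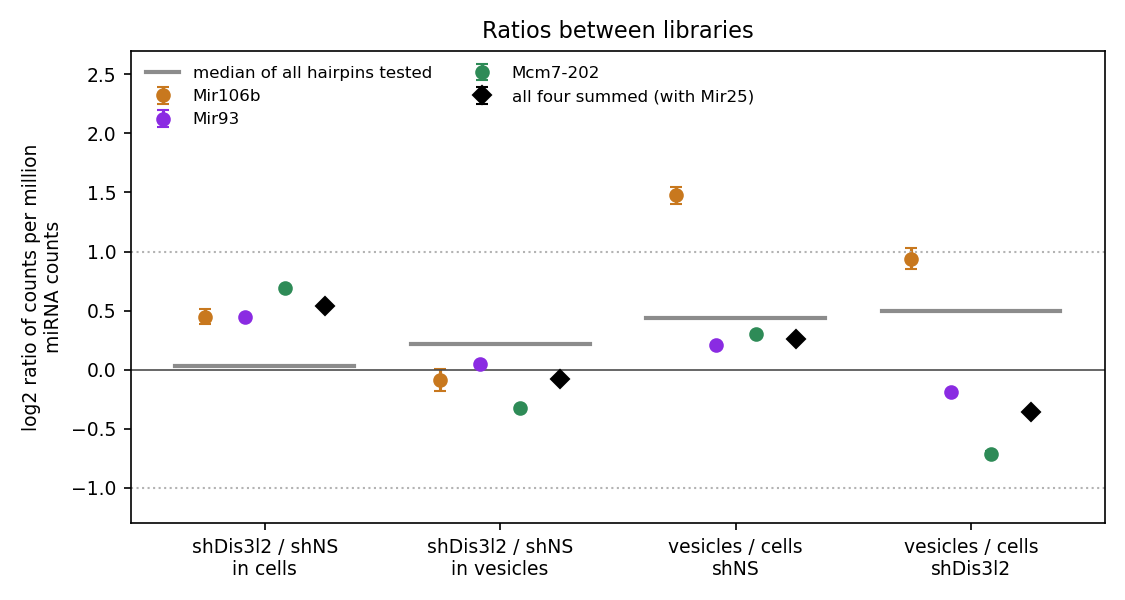
Log2 ratios of CPM of miRNA counts between libraries for Mir106b, Mir93, Mcm7-202 and their sum with Mir25, with exact 95% counting intervals and 1 library per group; grey bars are the median of all hairpins tested and dotted lines mark 2-fold. In the comparisons of vesicles with cells, Mir106b is above the median at 1.48 and 0.94, and Mir93 and Mcm7-202 are below it.

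The last 2 comparisons set vesicles against cells under each label. With the label shNS, Mir93 had a log2 ratio of 0.21 (0.20 to 0.22), Mcm7-202 0.30 (0.29 to 0.32) and the cluster sum 0.26 (0.25 to 0.27). Mir106b was 2.78-fold higher in vesicles (1.48, 1.40 to 1.55) and was the only 1 of these 3 features past 2-fold. Mir25, with under 100 counts, was at 1.20 (0.44 to 1.90). Of 210 hairpins, 33.8% were at least 2-fold higher in vesicles and 6.67% lower, with a median of 0.44. With the label shDis3l2, Mir93 was at -0.19 (-0.20 to -0.18), Mcm7-202 at -0.71 (-0.73 to -0.69) and the sum at -0.36 (-0.37 to -0.35), while Mir106b was at 0.94 (0.85 to 1.03). None of them was past 2-fold in this pair, where 37.4% of 206 hairpins were higher and 9.22% lower, with a median of 0.50. The sum would rank 124 of 209 and 161 of 205 in these comparisons, and Mir106b ranked 54 and 82.

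These directions depended on the scale, because miRNAs took 68.3% and 61.2% of all counts in cells and 19.1% and 10.5% in vesicles. With the label shNS, TMM moved every ratio by -0.62, DESeq2 by -0.82 and the total of all counts by -1.84. The ratio of the sum was then -0.36, -0.56 and -1.58, and that of Mir106b 0.86, 0.66 and -0.36. With the label shDis3l2 the shifts were -1.04, -1.20 and -2.54, which put Mir106b at -0.10, -0.26 and -1.60. Since a scale moves all ratios of a comparison by 1 constant, the order of Mir106b and Mir93 could not change, whereas whether Mir106b was above or below its level in cells did.

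The division between hairpins of the cluster needs no scale. In the cell libraries, there were 92.7 counts of Mir93 for each count of Mir106b with the label shNS (89.7 to 95.7) and 92.5 with the label shDis3l2 (89.8 to 95.4), so these intervals overlapped. In vesicles, there were 38.6 (37.1 to 40.1) and 42.3 (40.1 to 44.7), and neither vesicle library overlapped with a cell library. Mir106b relative to Mir93 was 2.40-fold higher in vesicles than in cells with the label shNS (2.29 to 2.53) and 2.19-fold higher with the label shDis3l2 (2.06 to 2.33). When Mir93, Mir25 and Mcm7-202 were summed, so that the division of shared reads no longer entered, there were 144 and 154 counts of them per Mir106b count in cells and 61.5 and 61.8 in vesicles. The folds became 2.35 (2.23 to 2.47) and 2.49 (2.34 to 2.65). The ratio of Mir93 to Mcm7-202 was 1.79, 1.52, 1.68 and 2.17, with no overlap of counting intervals between any of the 4 libraries. Reads of miR-93 match both features, so this ratio includes the division of shared reads, whose error these intervals leave out.

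Other hairpins also share their sequence with a transcript of their host. The table held 44 host genes whose exons hold a hairpin whole on the same strand and whose unit of host transcripts and hairpins had at least 100 counts in each library. In 10 of them the host share was under 10% in every library and in 16 over 90%. Mcm7 was 1 of 4 units that stayed between 10% and 90% in every library, with Wwp2 (host of Mir140), Egfl7 (Mir126a) and 2010111I01Rik (Mir24-1 and Mir27b), all named after their values were seen. Without Mir106b, the Mcm7 share was 35.8%, 39.7%, 37.3% and 31.5%, a spread of 8.24 percentage points. The spread was 1.86 points for Wwp2, 10.6 for 2010111I01Rik and 17.7 for Egfl7.

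**Figure D4:**
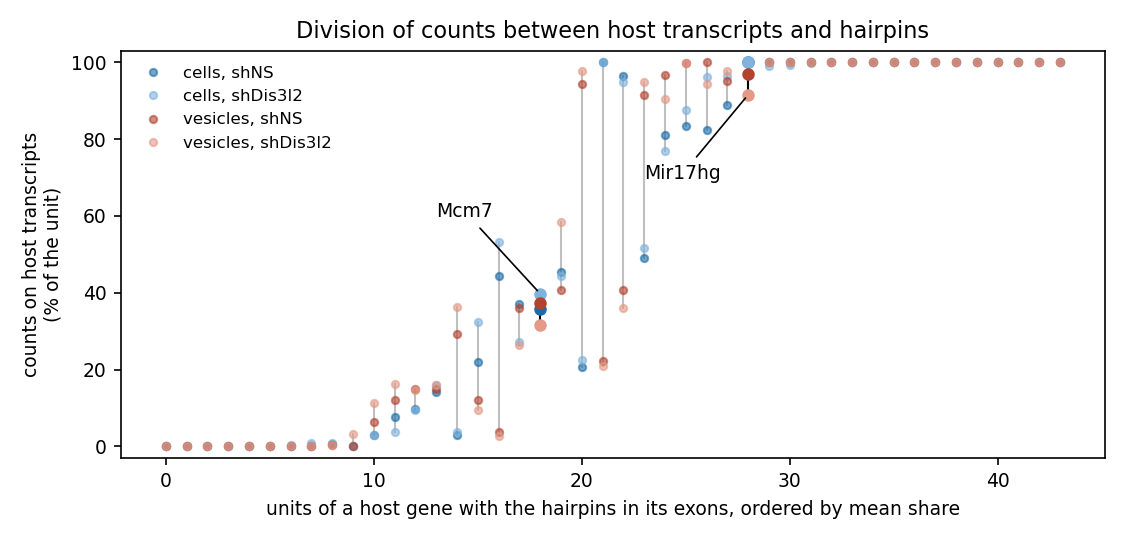
Share of counts on host transcripts, in percent of the counts on host transcripts and hairpins together, for 44 host genes with at least 100 counts in each library, with 1 point per library and a line from the lowest to the highest. Mcm7 lies between 31.5% and 39.7%, and Mir17hg between 91.5% and 100.0%.

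The paralogous miR-17-92 cluster, which shares the seeds above through Mir17, Mir20a and Mir92-1, was counted almost wholly on its noncoding host Mir17hg, whose exon holds all 6 hairpins. Mir17hg had 435924, 433675, 152465 and 63117 counts. Of its hairpins, Mir92-1 had 1.20 and 0 counts in cells and 4972 and 5085 in vesicles, Mir17 had 754 counts in the vesicle library labelled shDis3l2 and 0 elsewhere, and Mir18, Mir19a, Mir20a and Mir19b-1 were at 0. Host and hairpins together stood at 32338, 38469, 45274 and 37187 CPM of miRNA counts. Its label ratios were 0.25 in cells and -0.28 in vesicles, beside 0.54 and -0.08 for the miR-106b-25 sum. The other paralogue, miR-106a-363, summed to at most 53.9 counts in any library with its host Kis2. Mir20b held up to 30.0 of them, Mir106a and Mir19b-2 at most 6 and Mir363 at most 2, and Mir18b and Mir92-2 were at 0.

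Among 139 hairpins with at least 100 counts in each library, those whose pattern over the 4 libraries was most like that of the cluster sum were Mir93, which is part of it, Mir16-1, Mirlet7c-2, Mir374b and Mir155. The distance between log2 levels, each centred on its own mean, was 0.13, 0.20, 0.21, 0.22 and 0.31. Mir16-1 stood at 125233, 151651, 134666 and 137203 CPM of miRNA counts, and like the sum was lowest in the cell library labelled shNS and highest in that labelled shDis3l2. Mir106b was 88th in this order at a distance of 1.26. The likeness rests on 4 libraries that all features share.

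Scaled to all counts, Mcm7 transcripts other than Mcm7-202 were higher in vesicles than in cells, while Mcm7-202 and Mir93 were lower. Together they stood at 1.11, 2.01, 15.3 and 18.5 CPM of all counts. They were 13.5-fold higher in vesicles with the label shNS (8.91 to 22.3) and 9.08-fold higher with the label shDis3l2 (6.52 to 13.3), from 21.8, 36.7, 279 and 325 counts. Most of the vesicle counts in this sum, 159 and 204, lay on the retained-intron transcript Mcm7-205. The protein-coding Mcm7-201 alone was 23.8-fold higher in vesicles with the label shNS (10.9 to 81.7) and 4.82-fold higher with shDis3l2 (3.16 to 7.87). On the same scale Mcm7-202 was 2.89-fold lower in vesicles with the label shNS (2.87 to 2.92) and 9.52-fold lower with the label shDis3l2 (9.40 to 9.64). Mir93 was 3.09-fold and 6.64-fold lower. Of genes other than miRNAs with at least 100 counts over the pair of libraries, 76.4% of 6490 and 78.7% of 7024 were at least 2-fold higher in vesicles. A gene can pass this minimum through its vesicle counts alone.

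Of 21 MCM and origin-licensing genes other than Mcm7, 10 had at least 100 counts in the pair labelled shNS and 12 in the pair labelled shDis3l2, and each of these had under 50 counts in cells and passed through its vesicle counts, so no count of them is given. Over all 21 genes, with no minimum, the log2 ratio of vesicles to cells ran from 0.08 to 4.30 with a median of 2.42 for the label shNS, and from 0.23 to 3.90 with a median of 2.98 for shDis3l2. Genes other than miRNAs with at least 100 counts over the pair had medians of 2.21 and 2.45. The lowest of the 21 under both labels was Orc5, a subunit of the origin recognition complex named after its value was seen, with 42.4, 40.8, 41.0 and 46.1 counts. Mcm3, a subunit of the same helicase, had 14.7 and 44.4 counts in cells and 269 and 357 in vesicles. Mcm5, another subunit, had 21.3, 34.9, 247 and 304 counts. Mcmbp, which binds MCM subunits, had 49.8, 48.5, 188 and 180, and Cdt1, which loads the helicase at origins, 35.7, 32.1, 180 and 254. Between the labels, 0 of 21 had enough counts in cells. In vesicles 0 of 15 reached 2-fold, the size at which 10.6% of 8098 genes were higher and 1.85% lower, with a median of 0.33 against 0.32 for all genes.

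**Figure D5:**
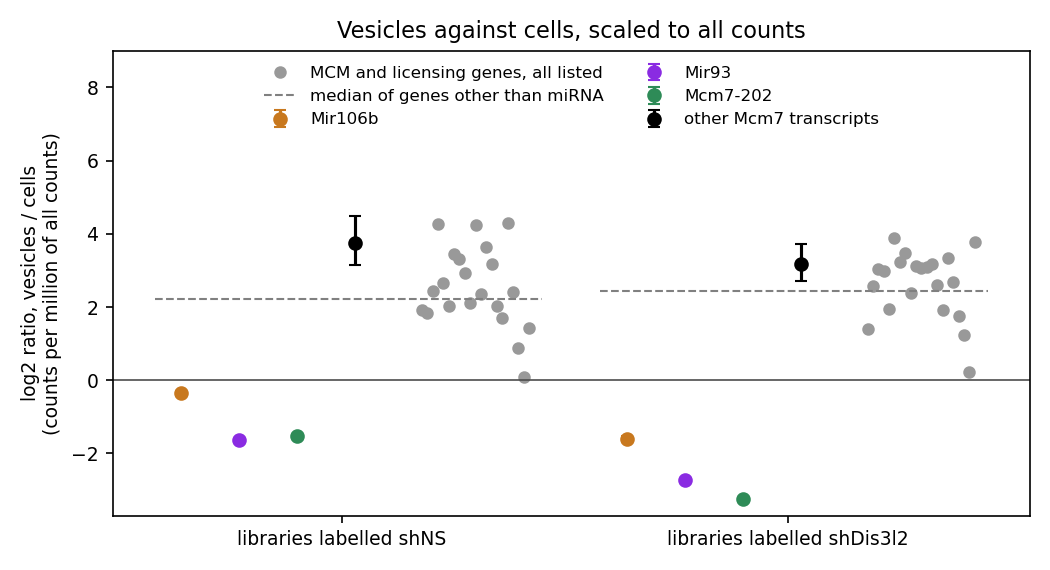
Log2 ratio of vesicles to cells in CPM of all counts, for Mir106b, Mir93, Mcm7-202 and the other Mcm7 transcripts summed (points with exact 95% counting intervals) and for all 21 MCM and licensing genes (grey), under each label, 1 library per group; the dashed line is the median of genes other than miRNAs with at least 100 counts. The other Mcm7 transcripts lie at 3.75 and 3.18, within the range of the MCM and licensing genes, and Mcm7-202 at -1.53 and -3.25 beside Mir93.

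Of 13 genes that regulate the cluster or are known as its targets, 4 were measured between the labels in cells and 10 in each other comparison. None of those measured reached 2-fold between the labels, in cells (where 14.4% of 3072 genes were higher and 4.59% lower) or in vesicles (10.6% and 1.85% of 8098). With no minimum, the label log2 ratios of all 13 genes ran from -2.09 to 0.90 in cells and from -1.41 to 0.98 in vesicles. The lowest, named after their values were seen, rest on few counts. They were Smad7 in cells, with 19.8 and 4.37 counts, and Myc in vesicles, with 31.0 and 11.0. In vesicles against cells, most of those measured passed the minimum through their vesicle counts. Over all 13 genes, with no minimum, log2 ratios ran from -0.55 to 6.30 with the label shNS and from -1.27 to 6.31 with shDis3l2, the lowest being Itgb8, an integrin subunit named after its value was seen, with 32.1, 25.7, 20.0 and 9.69 counts. E2f3, an activator of S-phase genes, had 50.1 and 43.8 counts in cells and 705 and 1245 in vesicles, a label log2 ratio of 0.87 in vesicles (0.73 to 1.00). Mycn, a MYC-family transcription factor, had 166, 150, 12098 and 11412 counts. Among the targets, Tgfbr2, a TGF-beta receptor, had 140, 129, 606 and 911 counts.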

How the data were processed

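The authors deposited 1 table of estimated counts per transcript, not scaled to depth, for 4 libraries. Per the labels' protocols, a QIAseq kit for miRNA was used, with reads of 50 nt, and vesicles came from a sucrose gradient and were treated with nuclease. Per the submitters' processing notes, cutadapt, Salmon and Novoalign were used with GRCm38 and mm10; versions and roles are not given in the sources used here. Each group has 1 library, so culture and label cannot be told apart.

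Transcripts were matched to GENCODE M21 (139791 of 141239 features named). Features typed miRNA (2022) made the miRNA total. Counts were rounded for ratios and intervals. The cluster sum adds Mcm7 transcripts whose exon holds a hairpin whole. Log2 ratios used a pseudocount of 0.5, with exact conditional 95% intervals. A feature with at least 100 counts over a pair of libraries was called at 2-fold if its interval excluded 1. mRNA fragments were summed by gene and scaled to all counts. For differences of ratios, intervals came from the delta method. Alternatives were TMM factors (edgeR 4.0.16), DESeq2 1.42.0 size factors, other totals and sums, a pseudocount of 5, and minimums of 10 or 1000 counts. TMM and DESeq2 factors were computed on the features typed miRNA. Python 3.11.15 and scipy 1.17.1 were used.

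Named genes were the members, the paralogous clusters, the 4 most counted genes of each other list, and the 5 hairpins of most similar pattern. Of the genes this rule names, 1 is not reported here. The members and lists were chosen with earlier results of these data known.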

Additional observations from a re-analysis of the deposited data

Results flagged for a closer look

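The label ratios of 3 items had opposite signs in cells and in vesicles, each compartment having 1 library per label, and the difference was not tested. The cluster sum was at 0.54 in cells and -0.08 in vesicles, a difference of -0.62 on the log2 scale. Mcm7-202 was at 0.69 and -0.33, a difference of -1.02. Mir106b was at 0.45 and -0.09, a difference of -0.54, and its counting interval in vesicles included 0. Mir93, at 0.45 and 0.04, kept its sign. With TMM factors, DESeq2 size factors or all counts as the scale, Mir93 was also below 0 in vesicles, at -0.30, -0.30 and -0.82.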

How the results depend on the processing

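No paired analysis was possible because each group has 1 library. With TMM, DESeq2 and all counts as the scale, the label ratio of the cluster sum in cells was 0.61, 0.58 and 0.38, that in vesicles -0.43, -0.42 and -0.94, and their difference -1.04, -1.0 and -1.32. The ratio of vesicles to cells under these scales was -0.36, -0.56 and -1.58 with the label shNS and -1.40, -1.56 and -2.90 with the label shDis3l2, so the first changed sign. Mir106b in vesicles against cells with the label shNS, 2.78-fold higher as reported, was at -0.36 with all counts as the scale. Each of these scales moves every feature of a comparison alike. With the hairpins alone, the 5 values were 0.45, 0.041, -0.41, 0.23 and -0.17. With host transcripts added to the miRNA total, the ratio for shDis3l2 was -0.37, against -0.36 as reported. The other values of the sum, including those with all Mcm7 transcripts or a pseudocount of 5, stayed within their counting intervals, and so did the shares on Mcm7 transcripts.

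The background counts depended more on the settings. A change of the minimum also changes how many hairpins are tested, so counts at other minimums cannot be set against the percentages above. In cells, with a count minimum of 10, 38 hairpins were at least 2-fold higher with the label shDis3l2 and 41 lower, and with a minimum of 1000, 9 were higher. In vesicles, these were 90 and 20 with a minimum of 10, 14 and 6 with 1000, 19 and 22 with TMM, 20 and 22 with DESeq2, and 7 and 50 with all counts. In vesicles against cells with the label shNS, 170 were higher and 26 lower with a minimum of 10, 35 higher with 1000, 41 lower with TMM, 44 and 57 with DESeq2, and 29 and 135 with all counts. With the label shDis3l2, 195 were higher with a minimum of 10, 36 with 1000, 50 higher and 72 lower with TMM, 49 and 83 with DESeq2, and 33 and 145 with all counts. Mir25 and the other Mcm7 transcripts had at most 325 counts in a library, so their ratios rest on few counts. Both mature arms of Mir25 also occur in a host transcript. Whether depth or the division of shared reads set the counts of Mir25 was not tested.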

Other observations

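Of 7 miRNA processing genes, 2 were measured between the labels in cells and 7 in vesicles. Of these, 0 and 1 reached 2-fold, a size at which 14.4% of genes other than miRNAs were higher and 4.59% lower in cells, and 10.6% and 1.85% in vesicles. The 1 gene was Ago1, named after its value was seen, with 1.28, 27.6, 3.97 and 111 counts. Ago1 passed the minimum of 100 counts through the vesicle library labelled shDis3l2 alone, so its call is not read as a result. In vesicles against cells, scaled to all counts and with no count minimum, the log2 ratios of all 7 genes ran from 1.26 to 3.34 with the label shNS and from 1.05 to 3.82 with shDis3l2; of genes with at least 100 counts, 76.4% and 78.7% were at least 2-fold higher. Ago2, the main guide-loaded nuclease, had 179 and 114 counts in cells and 1247 and 1550 in vesicles. Dicer1 had 84.2, 68.4, 374 and 453, Xpo5, the exporter of hairpins, 13.8, 39.1, 135 and 185, and Dgcr8 58.5, 39.6, 131 and 168.

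Outside the clusters, of the miRNAs with the seed of miR-25-3p, Mir32 had 2663 and 2223 counts in cells and 789 and 338 in vesicles, Mir92b had 24.0 to 41.0, and Mir367 was at 0. Of the seed of miR-93-5p, Mir6383 was at 0 in all 4 libraries.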
